A study of Arabidopsis thaliana with 12 samples.

Results

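Alternative first exons and alternative last exons were described in seedlings of Arabidopsis thaliana. They are the splicing events in which 2 or more exons at the start, or at the end, of a transcript compete for the same shared splice site. The members were all rows that the authors' 3 splicing tables class as one of these types, and every such row held a difference equal to that of its 2 group values. This gave 344 distinct events of 13918 over the 3 tables. Of these, 226 were first-exon events in 212 genes and 118 were last-exon events in 112 genes.

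RNA came from bulked whole seedlings of 2 genotypes, Col-0 as wild type and rbm25-1, which carries a mutation in RBM25 (AT1G60200), a gene for a splicing factor. Seedlings were untreated or sprayed with abscisic acid (ABA), a plant hormone made in drought and in maturing seeds. There were 12 samples in 4 groups with 3 replicates each, namely wild type untreated, wild type with ABA, rbm25-1 untreated and rbm25-1 with ABA. All seeds had 4 days of stratification and all seedlings were grown for 2 weeks. ABA was given as a 0.1 mM spray for 6 h, and the labels of the untreated groups say only that there was no treatment, with no mock spray. A second rbm25 allele or a complemented line was not analysed here. The labels do not say whether replicates were separate cultures. Since every table gives a single value for each group, the values below carry no SD and the depth is unknown. What spread the p-values of the events measure is not known, since their test is not given, and any spread between these samples may be technical.

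RBM25 was listed by the authors at 9.15 FPKM (fragments scaled to transcript length and to the mapped fragments of the sample) in untreated wild type and 2.55 in untreated rbm25-1. With ABA it was listed at 9.26 FPKM in wild type and 1.46 in rbm25-1. The leaf gene RBCS1A was at 5905 FPKM in untreated wild type and the root gene CASP1 at 75.5, so that both organs were in the samples. With ABA these were at 1880 and 28.1 FPKM. In bulk seedlings, fewer cells of a type and less RNA per cell cannot be told apart.

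A gene can start transcription at more than one promoter, and each start gives its own first exon, joined to the same downstream exon. It can also end at more than one poly(A) site, and a last exon is used when the transcript is cleaved before splicing removes it. In plants both choices are known to change untranslated regions, protein ends and the response to stress and light. RBM25 proteins bind RNA and act with the U1 particle, which marks the start of introns, in human cells.

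In this table format an event has an inclusion exon and 1 or more exclusion exons, and the percent spliced in (PSI) is the authors' share of the inclusion exon, from 0 to 100. By the deposited coordinates, the inclusion exon was the one nearest the shared exon in 192 of 226 first-exon events and in 109 of 118 last-exon events. A high PSI therefore mostly means use of the inner, proximal exon, and a low PSI use of the outer, distal one. Sequences at these sites were read from the RefSeq genome of the build TAIR10.1, on which 98.1% of the first-exon introns and 96.4% of the last-exon introns had GT-AG ends.

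The windows of 24 bases at the competing sites of the first exons that the ABA results turn on are shown here. The PSI compares junctions that start at these donors, and whether transcription start or splicing set the choice was not tested. Each window holds 12 bases of exon and 12 of intron, 5′ to 3′, with the first 2 intron bases in capitals.
RGLG1 proximal, chr3:242567-242590, plus strand: gttttctattagGTaattgcatgt
RGLG1 distal, chr3:242050-242073, plus strand: cacatacaaaagGTttgggatttt
RGLG2 proximal, chr5:4650726-4650749, minus strand: ttaacgaattagGTataggtaaat
RGLG2 distal, chr5:4651131-4651154, minus strand: tttagtttaaagGTagacaacttt
ABF3 proximal, chr4:16295834-16295857, plus strand: tcttaaattttgGTactttaaaac
ABF3 distal, chr4:16295458-16295481, plus strand: ataaattcgaagGTcaggaaaatt
BCA4 proximal, chr1:26536592-26536615, minus strand: tgatcctttaagGTttctctcatc
BCA4 distal, chr1:26537392-26537415, minus strand: aaaacctccccgGTaagtcccagc
Of the 24 bases, the 2 windows shown had 9 equal in RGLG1, 10 in RGLG2, 7 in ABF3 and 12 in BCA4. RGLG2 has a second proximal donor close by, with 11 bases equal to the distal window. ABF3 has 3 distal donors, of which 1 is shown, and the proximal window had 9 and 11 bases equal to the others. Over the 97 first-exon events within a gene that had a proximal inclusion site and a single site on each side, the donor was compared with the letters AGGTAAGT, on the transcript's strand. The median match was 5 of 8 letters at proximal sites and 6 of 8 at distal sites. The distal donor matched better in 48 events, the proximal donor in 28, and both equally in 21.

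The events fell into 2 classes by where their exons lie. In 164 first-exon events (72.6%) and 40 last-exon events (33.9%), the competing exons lay in the same annotated gene or in no other one. In the other 62 first-exon events (27.4%) and 78 last-exon events (66.1%), they lay in 2 different annotated genes. None of the events between 2 genes was marked by the authors as known, against 108 of 164 first-exon and 20 of 40 last-exon events within a gene. The median distance between the competing sites was 3541.5 nt for first exons between genes and 242 nt within a gene. For last exons it was 3031 nt between genes and 435 nt within a gene.

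The exons that competed between 2 genes were mostly copies of each other. Their median sequence identity was 83.6% for first exons (n = 62) and 83.8% for last exons (n = 78), against 19.5% (n = 137) and 19.0% (n = 36) within a gene. An identity of 70% or more was found in 47 of 62 first-exon and 58 of 78 last-exon events between genes, and in 0 of 137 and 2 of 36 within a gene. Many of these pairs are neighbouring members of a gene family, such as RBCS1B, RBCS2B and RBCS3B of the Rubisco small subunit, the dehydrin genes ERD10 and COR47, and the glucosinolate genes IMS2 and MAM1. Such copies can share reads, and values of these events are uncertain for that reason. Whether the joining reads came from spliced transcripts of 2 genes or from their shared sequence was not tested.

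**Figure D1:**
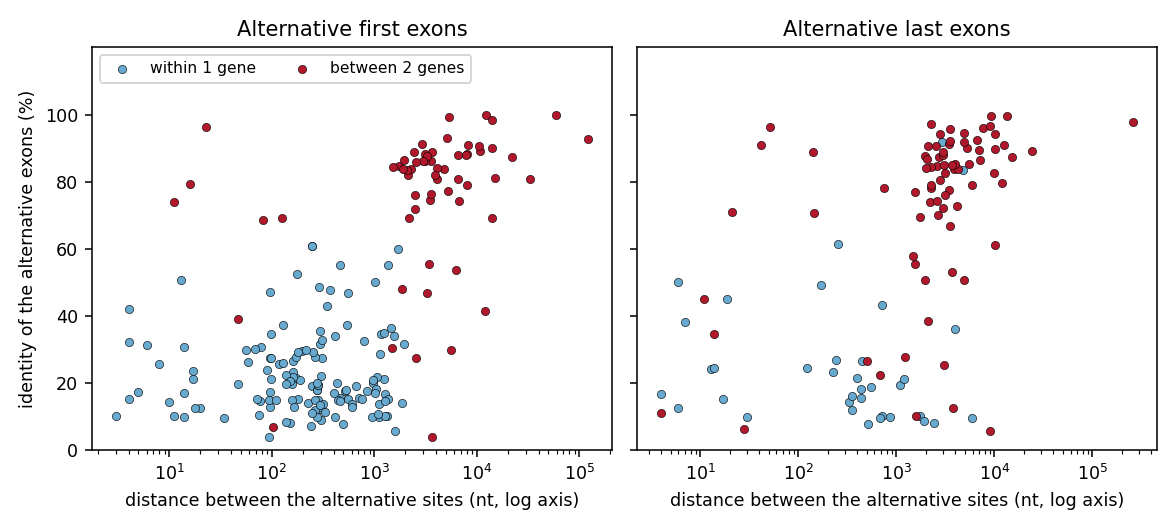
Sequence identity of the competing exons (percent) against the distance between their sites (nt, log axis), 1 point per event with an identity, first exons on the left and last exons on the right. Events between 2 genes (red) lie mostly above 70% and over a median of 3541.5 and 3031 nt, and events within a gene (blue) mostly below it.

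Acceptor windows of 3 such loci are shown because these competing sites are the same or nearly the same letters. Each holds 12 bases of intron and 12 of exon, with the last 2 intron bases in capitals.
RBCS1B (AT5G38430), chr5:15384578-15384601, minus strand: atgtgtttatAGcacggatttgtg
RBCS2B (AT5G38420), chr5:15381431-15381454, minus strand: ctttatatatAGcacggatttgtg
RBCS3B (AT5G38410), chr5:15377729-15377752, minus strand: atgtgtttatAGcacggatttgtg
ERD10 (AT1G20450), chr1:7088676-7088699, minus strand: attcatgaacAGtcgagtgatgaa
COR47 (AT1G20440), chr1:7085169-7085192, minus strand: aatacctaacAGtcgagcgatgaa
XTH13 (AT5G57540), chr5:23303375-23303398, minus strand: ggatctcaaaAGctttctcgtgga
XTH12 (AT5G57530), chr5:23300848-23300871, minus strand: gaatctcaaaAGctttctggttga
The windows of RBCS1B and RBCS3B had 24 equal bases of 24, those of RBCS1B and RBCS2B 20, those of ERD10 and COR47 18, and those of the xyloglucan enzyme genes XTH13 and XTH12 21. A further RBCS2B acceptor that competes in the RBCS1B event, at chr5:15381571-15381594, is not shown. Its window had 7 of 24 bases equal to that of RBCS1B. The donors of IMS2 and MAM1, which are 15030 nt apart, had 18 of 24.

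Within a gene, the deposited class covered more than separate promoters. Of the 137 first-exon events with a proximal inclusion exon, RefSeq has a separate first exon at the proximal site in 37. In 65 the annotated first exon that ends there begins upstream of the other donor, so that the same junctions describe 2 donors of a single exon. In 35 no annotated first exon ends at the proximal site. RGLG1 is of the second kind, BCA4 and PPC1 too, and RGLG2 of the first. For the 37 such last-exon events within a gene the counts were 7 separate, 11 running through and 19 without an annotated end.

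In 49 of 164 first-exon and 21 of 40 last-exon events within a gene, the exclusion junction skips exactly 1 exon that RefSeq places in the middle of a transcript. The same pair of junctions would also describe the skipping of a cassette exon. AT3G21710, BPS1 and RDH2 among the first exons, and GSTU9, AT3G56210 and AT3G58030 among the last exons, are of this kind. The counts of 49 and 21 come from the annotation and not from the reads. Among the deposited events, 0 of the 164 and 0 of the 40 had an exclusion junction that recurs in a cassette event. In any type other than first or last exons, it recurred for 39 and 14.

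For the protein, 119 of the 164 first-exon events within a gene had both isoforms annotated. In 87 of these the isoforms on both sides share a coding sequence, in 31 they do not, and 1 is non-coding. Last-exon events within a gene had 9 with a shared coding sequence, 9 with different ones, 4 non-coding and 18 without both isoforms. RGLG1 (489 residues), RGLG2 (468 residues) and UBA2A (478 residues) keep their protein, while BCA4 has 258 residues from the proximal and 280 from the distal first exon.

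Both ends of the PSI scale were common for first exons within a gene. In untreated wild type, first-exon events within a gene had a median PSI of 24.0 (quartiles 5.4 and 90.4, n = 149), with 50 events at 10 or less, 38 at 90 or more and 61 between. First-exon events between 2 genes had a median of 94.6 (n = 58), so that the gene's own exon was the main one. Last-exon events had medians of 83.3 within a gene (n = 39) and 95.0 between genes (n = 75). The medians in the other 3 groups were within 70.3 to 79.1 for last exons and 25 to 27.1 for first exons within a gene.

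ABA in wild type is the comparison with the largest share of first-exon events below the unadjusted threshold. In the authors' deposited table, 40 of 197 first-exon events (20.3%) had p under 0.05, with a higher PSI in 20 and a lower one in 20. Over all events of that table the share was 4.83%, with 2.35% higher and 2.47% lower. It was 8.96% for cassette exons, 8.58% for alternative donors, 4.62% for alternative acceptors and 1.92% for retained introns. For last exons, 15 of 105 events (14.3%) had p under 0.05 in the authors' deposited table, 8 with a higher and 7 with a lower PSI. Within a gene the shares were 26 of 142 first-exon (18.3%) and 7 of 39 last-exon events (17.9%), and between genes 14 of 55 (25.5%) and 8 of 66 (12.1%). After Benjamini-Hochberg adjustment of the deposited p-values over all events of the table, 0 members of either type had an adjusted p under 0.05, beside 0.00952% of all events, and the smallest was 0.152 for first exons and 0.34 for last exons. The size was small in most events, with a median absolute difference of 3.23 PSI points for first exons and 2.73 for last exons.

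**Figure D2:**
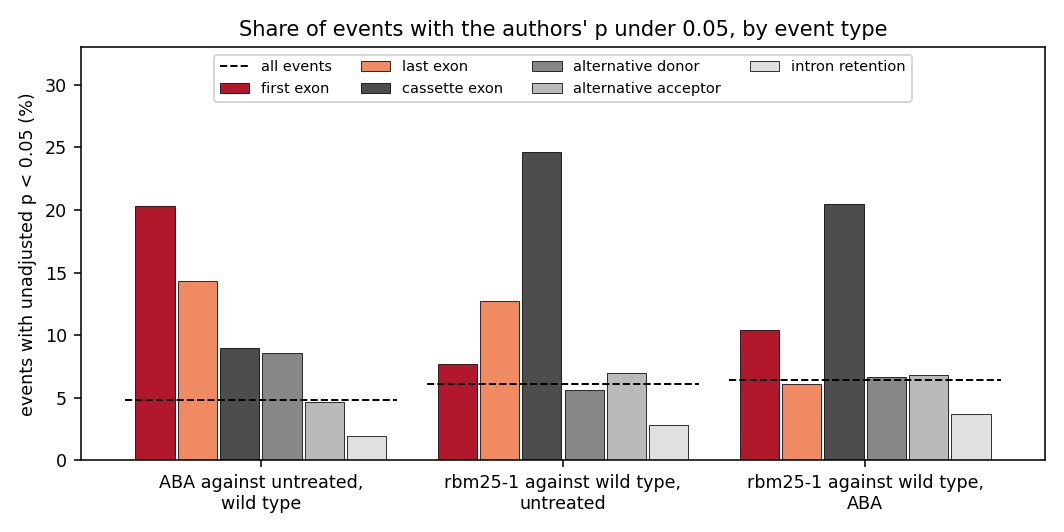
Share of events with the authors' unadjusted p under 0.05 (percent, axis from 0) by event type in each of the 3 comparisons, with a dashed line for all events of the table. First exons reached 20.3% with ABA in wild type, and cassette exons 24.6% in untreated rbm25-1.

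RGLG1 and RGLG2 encode related RING ubiquitin ligases that act on ABA signalling phosphatases, and both had more of the proximal exon with ABA. The authors' PSI of RGLG1 was 0 in untreated wild type, 76.9 in wild type with ABA and 74.2 in rbm25-1 with ABA, with no value for untreated rbm25-1. That of RGLG2 was 0 in untreated wild type, 31.7 in wild type with ABA, 4.88 in untreated rbm25-1 and 20.4 in rbm25-1 with ABA. Both groups with ABA stood above both untreated groups wherever they were listed. The p in the authors' deposited table for ABA in wild type was 0.000672 for RGLG1 and 0.00232 for RGLG2. The genes themselves also rose, by log2 values of 0.41 (q = 0.00821) and 0.40 (q = 0.00428) in the authors' deposited table. The sites that compete are 517 nt apart in RGLG1 and 405 nt in RGLG2, and all isoforms keep the same protein.

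ABF3 encodes a bZIP factor that switches on ABA-responsive genes. Its PSI was 40 in untreated wild type, 68.5 in wild type with ABA, 55.0 in untreated rbm25-1 and 72.0 in rbm25-1 with ABA. Both genotypes had a higher PSI with ABA (p = 0.00169 for wild type in the authors' deposited table). The ABF3 gene rose at the same time by 2.07 on the log2 scale in the authors' deposited table, from 14.3 to 59.8 FPKM (q = 0.000132).

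BCA4 (beta carbonic anhydrase 4) was outside the rule for named genes and was chosen after its values were seen, for its small p among events within a gene. Its PSI was 74.2 in untreated wild type, 95.7 in wild type with ABA, 73.1 in untreated rbm25-1 and 97.3 in rbm25-1 with ABA. The untreated values of both genotypes lay close together and so did both values with ABA. The p for wild type was 0.000243 in the authors' deposited table. The isoform with 280 residues, which starts at the distal exon, thus had 25.8 as its complement in untreated wild type and 4.31 with ABA.

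The DNA repair gene RAD4 had a PSI of 20.7 in untreated wild type, 50 in wild type with ABA and 35.7 in rbm25-1 with ABA. AT4G21910, which RefSeq annotates as a MATE efflux family gene, had the opposite direction, with 66.7 in untreated wild type, 29.9 with ABA, 72.7 in untreated rbm25-1 and 26.7 in rbm25-1 with ABA. The AT4G21910 gene rose by 1.65 on the log2 scale with ABA in the authors' deposited table (q = 0.000132). Its isoforms have 509 residues from the proximal and 507 from the distal exon.

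The other 3 first exons named by the size of their ABA difference join 2 genes. They were AT1G75300 with AT1G75280 (100 against 37.5), AT1G08900 with AT1G08890 (97.6 against 65.6) and GSTU22 with GSTU19 (76.9 against 46.5), with untreated wild type first and ABA second. GSTU22 encodes a tau class glutathione transferase and AT1G08900 a member of the major facilitator superfamily. All 3 had a lower PSI with ABA.

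A further set of first exons within a gene had p under 0.05 with ABA and smaller differences, and its examples were chosen after their values were seen. The proximal share of WRKY20, a WRKY factor gene, was 8.82 in untreated wild type, 23.5 with ABA, 11.5 in untreated rbm25-1 and 26.7 in rbm25-1 with ABA. That of SPL2, a squamosa-promoter binding factor gene, was 0, 13.3, 7.69 and 23.8 in the same order. AT3G60260 had 8, 25, 8.33 and 20.8, and its isoforms of 244 and 266 residues come from the proximal and the distal exon. These 3 had the higher value with ABA in both genotypes.

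Others had the lower value with ABA. AT4G14350 had 5.26 in untreated wild type and 6.67 in untreated rbm25-1, and was listed at 0 in both groups with ABA. AT5G38510 had 21.7 and 18.2 untreated and was listed at 0 in both groups with ABA. ORP2A, an oxysterol-binding protein gene with 510 residues from the proximal and 721 from the distal exon, had 48.5 and 50 untreated and 36.8 and 39.0 with ABA, wild type first. AT1G18390, with 654 and 648 residues, had 27.3 and 27.8 untreated and 16.9 and 13.1 with ABA. In each of these genes the 2 untreated values were nearer to each other than to the values with ABA.

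**Figure D3:**
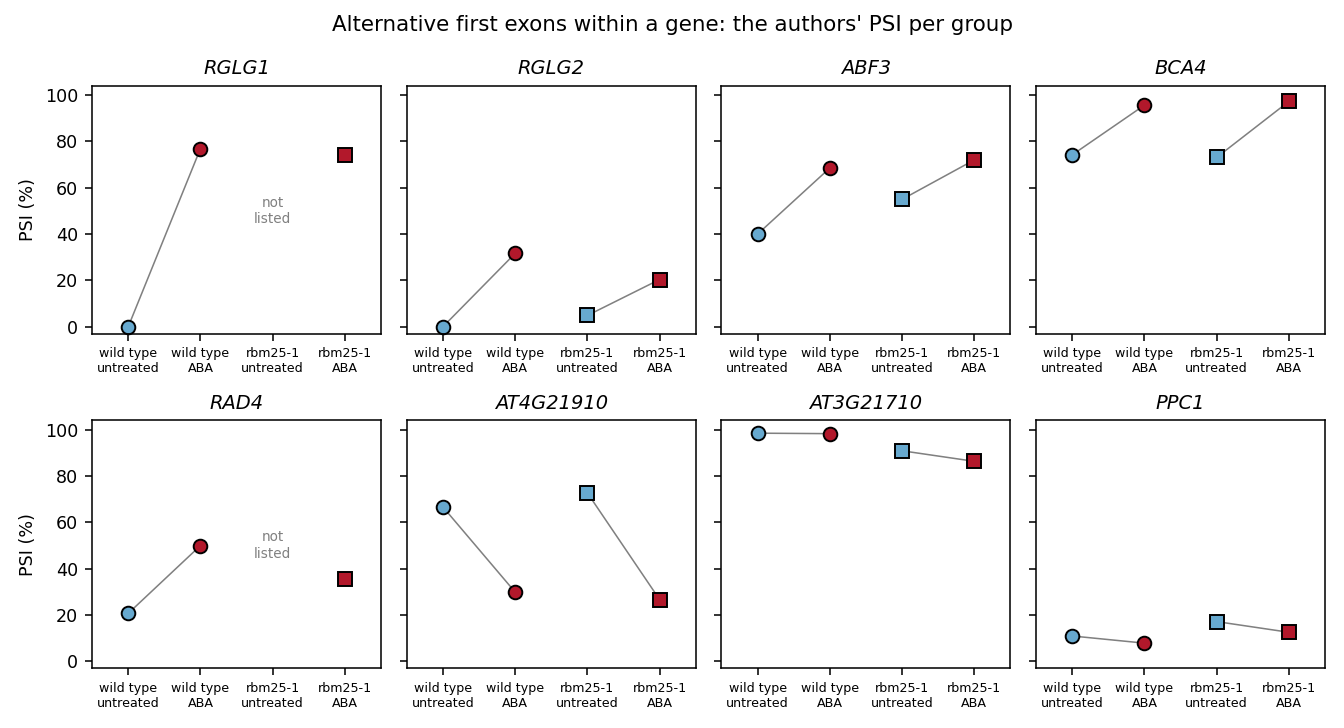
The authors' PSI (percent, axis from 0 to 100) of 8 first-exon events within a gene in the 4 groups, 1 value per group with no error, circles for wild type and squares for rbm25-1, blue untreated and red with ABA. RGLG1, RGLG2, ABF3 and BCA4 were higher with ABA in each genotype that was listed, and AT4G21910 was lower. AT3G21710 and PPC1 differed by genotype, and PPC1 was also lower with ABA in both genotypes.

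The direction of the ABA difference was then read in rbm25-1, whose samples took no part in the wild type comparison. Of 35 first-exon events with p under 0.05 in wild type and values in all 4 groups, 33 had the same direction in rbm25-1, 1 the opposite and 1 no difference. Among those within a gene it was 22 of 22, with a median size of 10.16 PSI points in wild type and 13.1 points, along the same direction, in rbm25-1. Some of these events share junctions, for example at AT1G53380 and AT1G63770, and are not independent of each other. Of the first-exon events with p of 0.05 or more, 77 of 116 had the same direction. For last exons the counts were 12 of 13 and 34 of 66. No deposited table compares rbm25-1 with and without ABA, so that these differences carry no p.

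**Figure D4:**
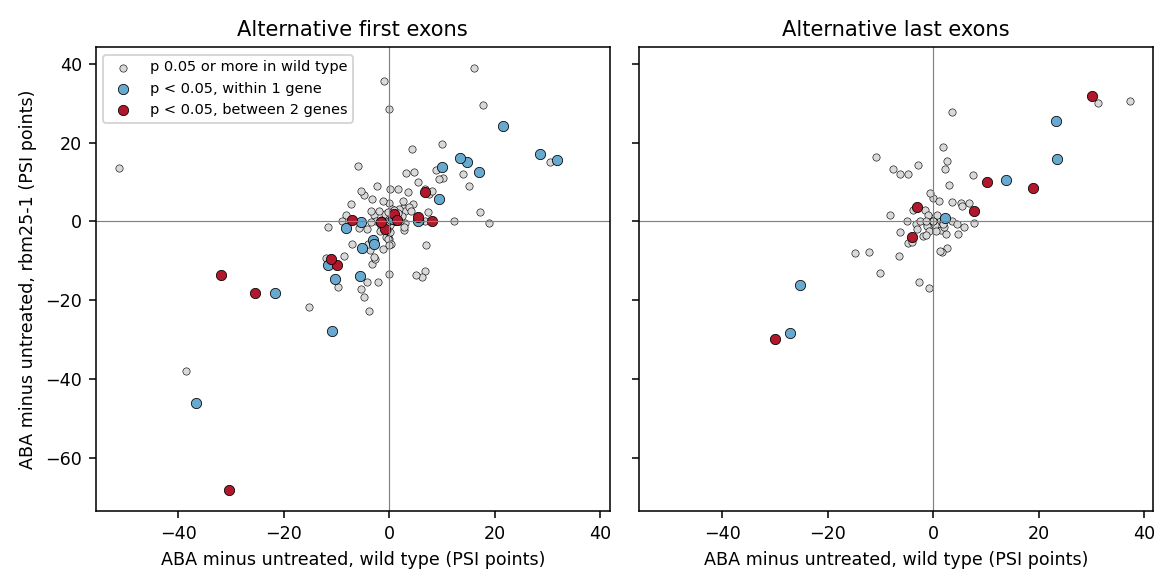
Difference in the authors' PSI (ABA minus untreated, points) in rbm25-1 against that in wild type, 1 point per event with values in all 4 groups, coloured where p in wild type was under 0.05. The coloured points lie along the diagonal quadrants in 33 of 35 first-exon and 12 of 13 last-exon events.

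The genes that hold the first exons with p under 0.05 were often changed in expression with ABA, as were 56.1% of all loci. Of 22 such genes with an event within a gene and an entry in the gene table, 14 rose, 2 fell and 6 did not pass the authors' q of 0.05 with ABA in the authors' deposited table. Among the genes of the other first-exon events within a gene, 31 rose, 27 fell and 49 did not pass. For last exons within a gene, 57.1% of 7 genes passed where the event had p under 0.05, and 55.6% of 27 others. Beside them, 26.0% of all loci rose and 30.1% fell in the authors' deposited table. Taking the hosts of all first-exon events, 59.0% of 195 changed with ABA, beside 56.1% of all loci, and 68.1% of 91 hosts of last-exon events did. In untreated rbm25-1 it was 13.9% and 26.4%, beside 13.3% of all loci, and in rbm25-1 with ABA 34.0% and 42.9%, beside 31.9%, by the q in the authors' deposited tables. Hosts of both types were expressed above the median of all loci. In the ABA comparison of wild type, the medians were 15.9 FPKM for first exons and 22.3 for last exons, against 10.3 for all loci.

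Among last exons with ABA, the RNA-binding protein gene UBA2A had a PSI of 51.6 in untreated wild type, 75 in wild type with ABA, 54.5 in untreated rbm25-1 and 80.0 in rbm25-1 with ABA (p = 0.0122 for wild type in the authors' deposited table). Its 2 last exons are 723 nt apart, both lie behind the stop codon, RefSeq lets the proximal one run through the distal acceptor, and the UBA2A gene did not pass the authors' q of 0.05. The acceptor sites that compete are shown with the last 2 intron bases in capitals.
UBA2A proximal, chr3:21050480-21050503, minus strand: ttcattgtgcAGatatcagaaatc
UBA2A distal, chr3:21049743-21049766, minus strand: aacttggaacAGtcaaacttggtg
UBA2A distal, second site, chr3:21049757-21049780, minus strand: actaagttgcAGccaacttggaac
The values of UBA2A grouped by treatment and not by genotype.

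The lectin gene JAL34 had a PSI of 85.9 in untreated wild type, 58.7 in wild type with ABA, 84.6 in untreated rbm25-1 and 56.4 in rbm25-1 with ABA (p = 0.00682 for wild type in the authors' deposited table). Its distal exon lies beyond the annotated end of the gene, 1746 nt from the proximal acceptor. AT3G58030, annotated as a RING/U-box gene, had 88.9 and 63.6 in wild type and 91.9 and 75.7 in rbm25-1, untreated first. GSTU9 had 100 in untreated wild type, 81.5 in wild type with ABA and 58.5 in rbm25-1 with ABA. All 3 had a lower proximal share with ABA. The non-coding gene AT5G18255 had 70.3 in untreated wild type and 93.7 with ABA, and 76.5 and 92.3 in rbm25-1.

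The Rubisco small subunit gene RBCS1B had a lower share of its own last exon with ABA in both genotypes. The PSI of its own acceptor, against those of RBCS2B and RBCS3B, was 88.3 in untreated wild type, 58.3 in wild type with ABA, 87.6 in untreated rbm25-1 and 57.7 in rbm25-1 with ABA. A second event of the same junctions, with the RBCS2B acceptor shown above as inclusion, had 11.6, 41.7, 10.6 and 42.3 in the same order and is not independent of it. The RBCS1B gene fell by 5.67 and the RBCS2B gene by 3.45 on the log2 scale with ABA in the authors' deposited table (q = 0.000132 for each). AT2G43620, a chitinase family gene that competes with AT2G43610, had 81.0 in untreated wild type and 99.8 with ABA.

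ERD10, which shares an event with COR47, and IMS2, which shares one with MAM1, were chosen after their values were seen, for the smallest p of last exons and of first exons with ABA. ERD10 had a PSI of 81.2 in untreated wild type, 91.5 with ABA, 80.4 in untreated rbm25-1 and 90.4 in rbm25-1 with ABA (p = 0.000213 for wild type in the authors' deposited table). The ERD10 gene rose by 3.46 and COR47 by 2.38 on the log2 scale in the authors' deposited table. IMS2 had 97.0, 71.4, 97.5 and 79.3 in the same order (p = 2.9e-05 in the authors' deposited table). The IMS2 gene fell by 3.32 on the log2 scale there, while MAM1 had a log2 value of -0.32 in the authors' deposited table. In both pairs the difference in PSI had the sign of the difference between the 2 genes' fold changes.

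That relation was counted over all events between 2 genes for which both genes have a fold change. With ABA in wild type, the difference in PSI had the sign of the difference between the 2 genes' log2 fold changes in 24 of 36 first-exon events, and in 7 of 7 with p under 0.05. For last exons it was 22 of 35, and 3 of 3. Across these events the Spearman rho was 0.49 (n = 41) for first exons and 0.37 (n = 45) for last exons, given as a description because events share genes, libraries and reads. In untreated rbm25-1 rho was 0.40 (n = 42) for first exons and -0.06 (n = 45) for last exons. In rbm25-1 with ABA rho was -0.06 (n = 40) and 0.24 (n = 42).

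**Figure D5:**
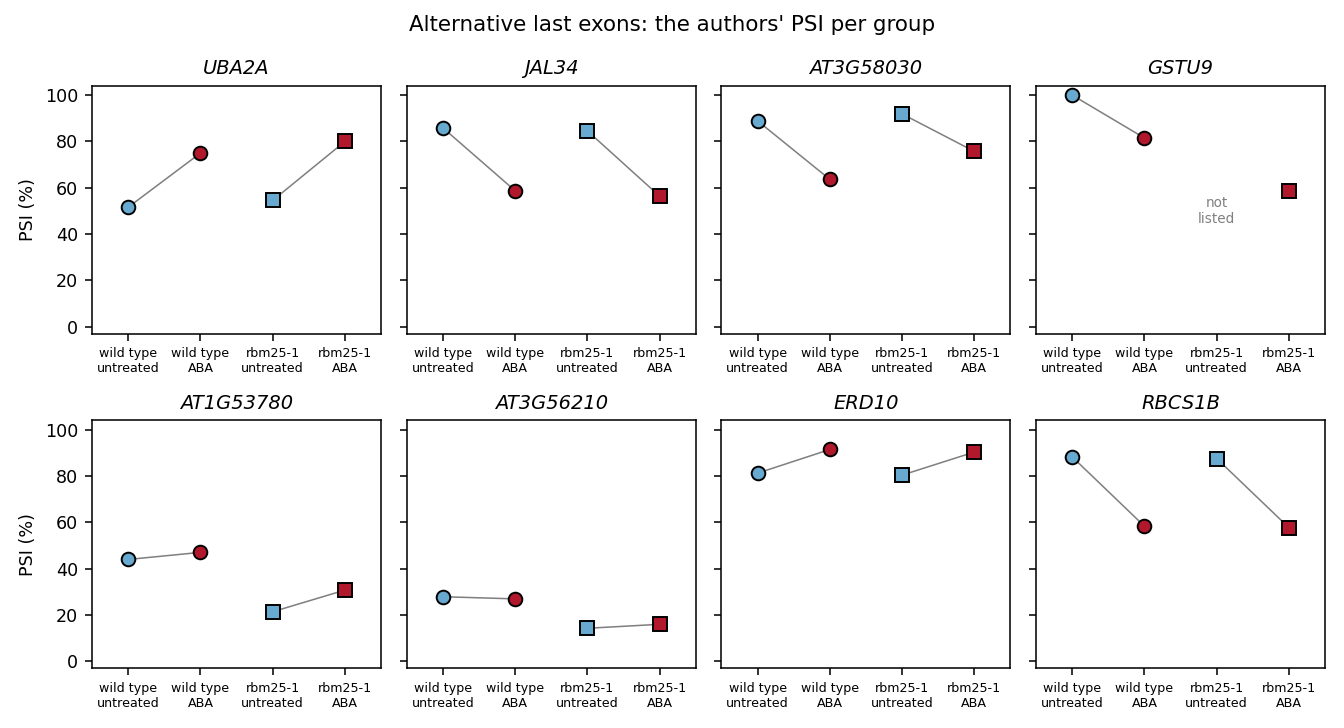
The authors' PSI (percent, axis from 0 to 100) of 8 last-exon events in the 4 groups, 1 value per group with no error, circles for wild type and squares for rbm25-1, blue untreated and red with ABA. UBA2A and ERD10 were higher with ABA and JAL34, AT3G58030 and RBCS1B lower in both genotypes, and AT1G53780 and AT3G56210 were lower in rbm25-1.

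The mutant comparison without ABA gave a first-exon share nearer to that of all events. In the authors' deposited table, 14 of 181 first-exon events (7.73%) had p under 0.05, 5 with a higher and 9 with a lower PSI in rbm25-1, beside 6.13% of all events (2.39% higher, 3.74% lower) and 24.6% of cassette exons. For last exons it was 13 of 102 (12.7%), 5 higher and 8 lower. At an unadjusted p under 0.01 it was 8 of 102 last-exon events (7.84%), beside 1.59% of all events. With ABA in both genotypes, 22 of 211 first-exon events (10.4%) and 6 of 98 last-exon events (6.12%) had p under 0.05 in the authors' deposited table, beside 6.4% of all events (2.92% higher, 3.47% lower). After Benjamini-Hochberg adjustment over all events, 0 members passed 0.05 in either comparison, beside 0.0102% of all events untreated and 0.0179% with ABA, and the smallest adjusted p was 0.402. Within a gene, the share with ABA was 16 of 154 first-exon (10.4%) and 4 of 36 last-exon events (11.1%), and between genes 6 of 57 (10.5%) and 2 of 62 (3.23%). Untreated, it was 12 of 128 (9.38%) and 5 of 34 (14.7%) within a gene, and 2 of 53 (3.77%) and 8 of 68 (11.8%) between genes. The 2 mutant comparisons use different samples. Of the 14 first-exon events with p under 0.05 untreated, 9 had the same direction with ABA, and 71 of 131 of the others did. Of 12 last-exon events it was 10, and 38 of 62 of the others.

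5 first-exon events had p under 0.05 in both mutant comparisons, and no last-exon event did. AT3G21710, an uncharacterized protein gene, had the smallest p. Its PSI was 98.5 in untreated wild type, 98.3 in wild type with ABA, 90.9 in untreated rbm25-1 and 86.4 in rbm25-1 with ABA. Both mutant groups stood below both wild-type groups (p = 0.00373 untreated and 0.0006 with ABA in the authors' deposited tables). Its proximal exon is a middle exon in RefSeq, and the distal donor skips it.
AT3G21710 proximal, chr3:7649049-7649072, plus strand: agtttcgttatgGTaatctctcta
AT3G21710 distal, chr3:7648746-7648769, plus strand: aacagccctaagGTtagatactac
PPC1, a phosphoenolpyruvate carboxylase gene, had 11 and 7.87 in wild type and 17.2 and 12.6 in rbm25-1, untreated first. RDH2, a rhodanese homologue, had 0 and 3.45 in wild type and 3.92 and 11.4 in rbm25-1. Both were higher in rbm25-1 under each treatment. PPC1 was also lower with ABA in both genotypes, with p under 0.05 for ABA in wild type.

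The remaining pair was lower in the mutant under each treatment. BPS1 had 98.8 and 100 in wild type and 96.8 and 97.1 in rbm25-1, and it too had p under 0.05 for ABA in wild type. The event at HOS10 (AT1G35515) has 2 distal donors, the nearer of which lies 14 nt from the proximal one. HOS10 had 84.1 and 83.7 in wild type and 80.8 and 78.4 in rbm25-1. Differences of these 5 events lay between -11.95 and 7.98 PSI points in the authors' deposited tables, and 3 of the 5 skip a middle exon of RefSeq.

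Events that skip a middle exon were counted apart from the others within a gene. In the authors' deposited table, 6 of 37 such events within a gene (16.2%) had p under 0.05 in untreated rbm25-1, against 6 of 91 others (6.59%). With ABA it was 5 of 46 (10.9%) against 11 of 108 (10.2%). For last exons within a gene the shares were 3 of 17 (17.6%) against 2 of 17 (11.8%) untreated, and 3 of 17 against 1 of 19 with ABA. With ABA in wild type it was 5 of 39 (12.8%) against 21 of 103 (20.4%) for first exons. The difference between these shares was not tested.

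Other first exons named by their size in untreated rbm25-1 were MGT2, GSL03, AT3G29644, KIN2, AT5G19240 and AT5G25475. The magnesium transporter gene MGT2 had 100 in wild type and 95.2 in rbm25-1, the glucan synthase gene GSL03 had 16.7 and 0, and the non-coding gene AT3G29644 had 25 and 12. KIN2, a cold- and ABA-induced gene next to its copy KIN1, had 97.2 and 92.1. AT5G19240, in an event with its neighbour AT5G19230, had 67.5 and 78.6, and the B3-like factor gene AT5G25475 had 5.41 and 0. 5 of these 6 were lower in rbm25-1.

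With ABA, the first exons named by size were AT3G21710, THA1, AT1G67900, AT3G06450, AT4G19070, SQS2, UAP56b and RAD4. The outer exon of the threonine aldolase gene THA1 had 87.1 in wild type and 72.2 in rbm25-1, while the THA1 gene was at 43.6 and 11.4 FPKM. AT1G67900, annotated as an NPH3 family gene, had 61.9 in wild type and 93.3 in rbm25-1. AT3G06450 had 15.8 and 33.3. Among events between 2 genes, AT4G19070, which competes with AT4G19095, had 76.0 and 100, and the squalene synthase gene SQS2, which competes with its copy SQS1, had 65.2 and 91.3. UAP56b, an RNA helicase gene whose exon competes with that of its copy, had 75 and 63.5. Another first-exon event of the same gene pair differed by -0.08 points (p = 0.478 in the authors' deposited table). The values of AT4G19070, SQS2 and UAP56b are uncertain, as for the other events between genes. RAD4, THA1, UAP56b and AT3G21710 were lower in rbm25-1 with ABA, and the other 4 were higher.

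Among last exons in untreated rbm25-1, AT1G53780 had a PSI of 44.0 in wild type and 21.4 in rbm25-1, and with ABA 47.1 and 30.8. It encodes a 26S proteasome ATPase, and the p untreated was 0.00857 in the authors' deposited table. AT3G56210, annotated as an ARM repeat gene, had 27.9 in wild type and 14.3 in rbm25-1, and with ABA 27.0 and 16.0 (p = 0.00249 untreated in the authors' deposited table). Both were lower in both mutant groups than in both wild-type groups. AT5G22780, an AP-2 adaptor gene that shares its event with its neighbour AT5G22770, had 84.0 in untreated wild type, 81.5 in wild type with ABA and 100 in both mutant groups (p = 0.00326 untreated in the authors' deposited table).

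The other last exons named in that comparison were AT1G19720, AT1G53380, TCL2, AT2G43620 and XTH13. All but AT1G53380 join 2 genes. TCL2, a MYB gene of epidermal hair patterning, had 50 in wild type and 61.9 in rbm25-1. AT1G53380 had 83.3 and 94.1, AT2G43620 had 81.0 and 91.3, AT1G19720 had 40.8 and 30, and XTH13 had 100 and 88.0. With ABA the named last exons were AT1G24350, AT2G32190, AOC1, SUVH9, AT5G43725 and GSTU9. Of these, AT2G32190 and AOC1 join 2 genes. SUVH9, which acts in RNA-directed DNA methylation, had 58.7 in wild type and 80.0 in rbm25-1 with ABA. AT5G43725, a non-coding gene, had 30 and 8.57, and GSTU9 had 81.5 and 58.5 (p = 0.0047 and 0.0024 in the authors' deposited table). AOC1, an allene oxide cyclase gene of jasmonate synthesis, had 96.0 and 92.7. AT2G32190 had 96.0 and 100, and AT1G24350 had 4.48 and 2.04.

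The genes of 3′-end processing were read from the gene tables as the machinery that sets last exons. With ABA in wild type, 1 of 16 measured members rose and 3 fell in the authors' deposited table, beside 26.0% of all loci that rose and 30.1% that fell. FY, CPSF100 and CPSF160, of the complex that finds the poly(A) signal, had log2 values of -0.45, -0.44 and -0.42 there in the authors' deposited table. In untreated rbm25-1, 1 of 15 rose and 1 fell in the authors' deposited table, where 6.15% of all loci rose and 7.2% fell. In rbm25-1 with ABA, 9 of 16 rose and 0 fell in the authors' deposited table, beside 17.7% of all loci that rose and 14.3% that fell, and 10 of 16 had an unadjusted p under 0.05. The median log2 value of the list was 0.35 and that of all loci 0.02. The count of 0 that fell depends on the genes left out because RefSeq does not pair their identifier with that name. Of these, PCFS5 fell in rbm25-1 by 0.72 on the log2 scale untreated (q = 0.00203) and by 0.61 with ABA (q = 0.00388) in the authors' deposited tables. FIPS3, left out likewise, rose by 0.60 in rbm25-1 with ABA (q = 0.0149), and PCFS1 rose by 0.75 with ABA in wild type (q = 0.000132), in the authors' deposited tables.

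The largest of these was PAPS2, a poly(A) polymerase gene, with 5.12 and 6.37 FPKM in wild type and 8.99 and 11.4 in rbm25-1. PAPS2 rose in both mutant comparisons, by 0.81 and 0.84 on the log2 scale in the authors' deposited tables (q = 0.000132 for each). CPSF100 was at 4.86 FPKM in wild type and 7.37 in rbm25-1 with ABA, a log2 value of 0.60 (q = 0.000132 in the authors' deposited table). CPSF160 had a log2 value of 0.56, CLPS3 0.48, and FCA, an RNA-binding protein of the flowering pathway that acts on 3′ ends, 0.47 in the authors' deposited table. No member reached a 2-fold change in any comparison.

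Of the 4 measured genes of transcript start and polymerase passage (TBP1, TBP2, SPT16 and SSRP1), 0 passed the authors' q of 0.05, and 0 an unadjusted p of 0.05, with ABA in wild type and in untreated rbm25-1 in the authors' deposited tables. Of all loci, 56.1% and 13.3% passed the q in these comparisons. SPT6L, left out because RefSeq does not pair its identifier with that name, rose in rbm25-1 by 0.60 untreated and by 0.59 with ABA on the log2 scale (q = 0.000132 for each in the authors' deposited tables). In rbm25-1 with ABA, SPT16, a subunit of the FACT histone chaperone, rose by 0.55 on the log2 scale (q = 0.000132 in the authors' deposited table). SSRP1, the other subunit, was at 20.9 FPKM in wild type and 28.1 in rbm25-1 with ABA and did not pass (q = 0.201 in the authors' deposited table). No first-exon or last-exon event with p under 0.05 in any comparison of the authors' deposited tables lay in a gene of these lists or in RBM25.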

How the data were processed

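The authors deposited 3 gene tables and 3 splicing tables, each setting 2 groups against each other. Per the submitters' processing notes the tools were Trimmomatic 0.32, TopHat2 2.0.13, Cufflinks 2.2.1 and Cuffdiff on TAIR10, and the counting of strands is not given in the sources used here. Per the file headers, the gene tables hold FPKM per group, a log2 fold change, a p-value and a q-value. Per the file headers, the splicing tables hold the PSI of each group as a percent, their difference as a signed score in points and an unadjusted p-value by the authors. For the events, the program, the test and the minimum of reads are also not given there.

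Rows whose difference was not that of the 2 PSI values (tolerance 0.011 points) were left out, 33, 28 and 28 in the order ABA, untreated mutant and mutant with ABA, none of them a first or last exon. Benjamini-Hochberg adjustment ran over all intact events of a table, and unadjusted p under 0.05 was counted as a description. No test of group values was run here. Loci were called at the authors' q under 0.05. Genes were named by the position of the shared exon in RefSeq (TAIR10.1), since the deposited identifier belonged to another place in 13 first-exon and 39 last-exon events. Exon identity came from local alignment in Biopython 1.88 over exons of at least 40 nt (match 1, mismatch -1, gap -2 to open and -1 to extend). It is the identical bases as a percent of the shorter exon, for the best exon pair of an event. Python 3.11.15, pandas 2.3.3 and SciPy 1.17.1 were used, and the adjustment was tested on simulated data.

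The text names, per type and comparison, the 8 events with the largest difference in PSI among those with p under 0.05, those with p under 0.05 in both mutant comparisons, and any in RBM25 or a listed gene. The members and gene lists were chosen with earlier results of these data known. List genes for which RefSeq does not pair the identifier with that name (CSTF50, PCFS1, PCFS5, FIPS3, CFIS1, CFIS2 and SPT6L) were left out. Of 20 remaining 3′-end genes, 16 were measured with ABA. Events that share junctions (for example at RBCS1B, THA1, AT1G53380, AT1G63770, ADF4 and LCR68) are counted separately. So are events over the same set of genes at MLP34 and AT2G32210, and events with the same exon bounds at MGT2.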

Additional observations from a re-analysis of the deposited data

How the results depend on the processing

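Of 54 alternatives to the counts, 24 stayed within 1.5 times the main count and 30 did not. The counts below are in the order ABA in wild type, untreated rbm25-1 and rbm25-1 with ABA, first exons before last exons. With an adjusted p under 0.05 they were 0, 0 and 0, and 0, 0 and 0. With an unadjusted p under 0.01 they were 15, 3 and 5, and 5, 8 and 2. These were 7.61%, 1.66% and 2.37% of first exons and 4.76%, 7.84% and 2.04% of last exons. Of all events, 1.04%, 1.59% and 1.76% had such a p. With p under 0.05 and a difference of at least 10 points they were 20, 3 and 9, and 10, 8 and 3. These were 10.2%, 1.66% and 4.27% of first exons and 9.52%, 7.84% and 3.06% of last exons. The shares of all events were 1.72%, 2.86% and 3.04%. Without events between 2 genes, an alternative chosen after seeing the data, first exons with ABA went from 40 to 26, last exons with ABA from 15 to 7 and last exons in untreated rbm25-1 from 13 to 5, because fewer events were left. Leaving out PSI of 0 or 100, equal PSI, or all but 1 event per gene kept each count within 1.5 times. With at least 2-fold change, called host genes of first exons were 38 of 195, 1 of 194 and 2 of 194. For last exons they were 23, 4 and 4, of 91 hosts in each comparison. The share of all loci at this threshold was not counted, so that these counts cannot be set against a background. At the same threshold the 3′-end list had 0, 0 and 0 called genes, and the start list 0 in each comparison. No paired analysis was possible because the tables hold 1 value per group, and leaving out each replicate was not run for the same reason. Depth is unknown, so that an exon listed at 0 may be used below detection.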
